A study of Homo sapiens with 4 samples.

Results

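FaDu and HSC3 cells carrying a control miRNA were compared with each other in the Cy3 (green) channel of 4 two-colour Agilent oligo-microarrays. All 4 samples of the series were used, and of their 8 channels the 4 Cy3 channels made up the comparison, with 2 arrays of FaDu against 2 arrays of HSC3. FaDu is an established line from a human hypopharyngeal squamous cell carcinoma, and HSC3 is an established line from a squamous cell carcinoma of the tongue. Both groups were transfected with the same type of non-targeting control and were taken 72 h after transfection, so every value describes transfected cells and not untouched ones. In each line array 1 also carried Cy5-labelled RNA of cells transfected with miR-489, and array 2 Cy5-labelled RNA of cells transfected with miR-504. The labels do not say whether the control RNA on the 2 arrays of a line came from separate cultures. The p-values below therefore measure the spread between arrays, which may be technical, and each line stands for itself and not for tumours of its site.

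Squamous carcinoma cells keep the keratins, desmosomes and basal transcription factors of stratified epithelium, but lines differ in how far they have taken on features of migrating cells. In such a shift, vimentin filaments, matrix proteins, integrins and secreted proteases rise, while E-cadherin may be lost or kept. Lines also differ in the genes that answer oxidative stress through the transcription factor NRF2, in the HOX code that marks body position, in cytokine output, and in the parts of chromosomes that were gained or lost in the tumour.

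The unit of all levels is the Cy3 spot median minus its local background, after scaling of the arrays to one another. A difference is FaDu minus HSC3 on the log2 scale, with its standard error (SE) and an adjusted p from limma with Benjamini-Hochberg correction over 22773 probes. A gene was called where the adjusted p was below 0.05 and the difference at least 2-fold, and its value is that of its brightest probe. Signals were well above background for 58.2% to 59.2% of spots, and the spot medians of 119.5 to 132 lay over background medians of 62.5 to 64.5. A gene that was not well above background on either array of a line was set to a floor of 20.1 to 24.2 intensity units, the lowest signal well above background on that array, or to its own signal where that was higher. Its fold is then a lower bound and is written as "at least". Levels of different genes were not compared, since probes differ in how well they bind.

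Arrays of one line were far more alike than arrays of different lines. Over 19716 probes well above background on all arrays, the SD of the difference was 0.276 between the FaDu arrays and 0.354 between the HSC3 arrays, against 0.940 to 0.969 between lines. The share of these probes that differed at least 2-fold was 0.619% within FaDu, 1.62% within HSC3 and at least 21.8% between lines. HSC3 array 2 stood apart from HSC3 array 1 in genes of the cornified envelope and in a few cytokines, as described below, and results that rest on these genes are given with and without that array.

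Of 11581 genes tested, 1640 (14.2%) were called higher in FaDu and 1501 (13.0%) higher in HSC3, and the median difference over all of them was 0.09. These shares are the background for every list count below, and a list near them does not stand out. Differences of at least 8-fold were found for 119 genes higher in FaDu and 187 higher in HSC3, and differences of at least 32-fold for 24 and 40. A signal well above background in both lines was present for 10380 genes. For 268 of the genes higher in FaDu and 285 of those higher in HSC3, the other line gave no signal well above background on either array. The Cy5 channel of the same arrays, which held RNA of the miRNA transfectants of the same lines, was read in the same way with the transfected miRNA as a block. There 17.1% of 11762 genes were called higher in FaDu and 14.2% higher in HSC3. Of the 2915 genes called in Cy3 that also had a Cy5 value, 2915 differed in the same direction, and 2746 of them by at least 2-fold. The RNAs of the 2 channels were separate, but the spots were shared.

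**Figure D1:**
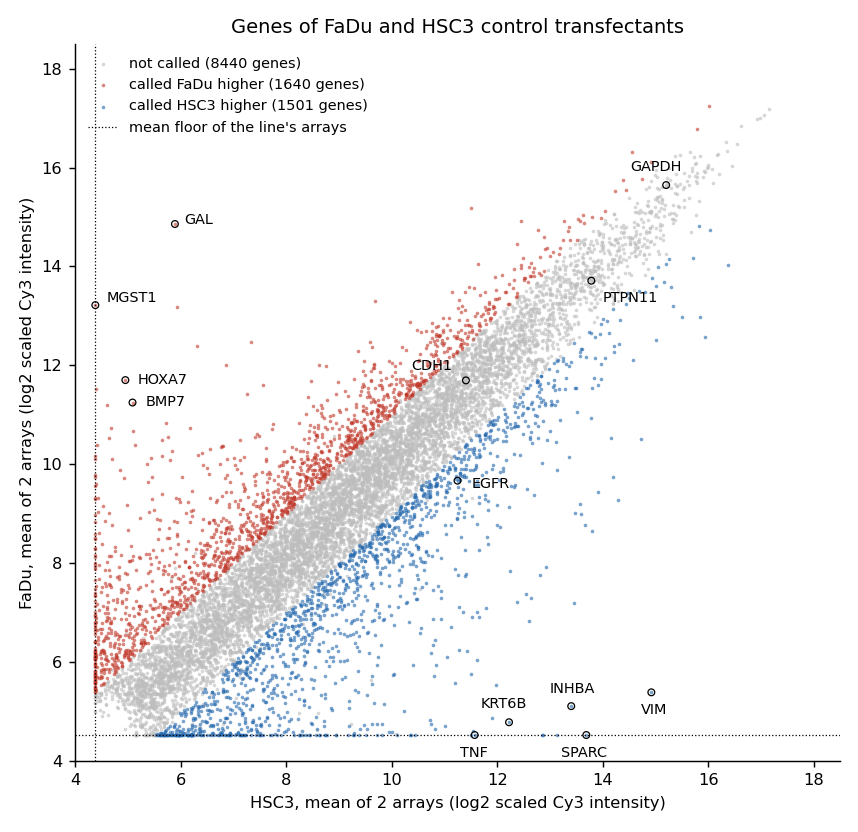
Each point is 1 of 11581 genes, with its mean over the 2 HSC3 arrays on the horizontal axis and over the 2 FaDu arrays on the vertical axis (log2 scaled Cy3 intensity); dotted lines mark the mean floor of each line's arrays. The 1640 genes called higher in FaDu (red) lie above the grey points and the 1501 called higher in HSC3 (blue) below them, with VIM, SPARC and INHBA at the lower right and GAL and MGST1 at the upper left.

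Both lines had the marks of squamous epithelium. Of 9 tested genes from a list of squamous epithelial markers, 0 were called higher in FaDu and 2 higher in HSC3, the desmosome genes DSC3 and PKP1. KRT5, a keratin of basal cells, read 30083 and 18166 on the FaDu arrays and 33825 and 27748 on the HSC3 arrays, so the lines overlapped in part (difference −0.39 ± 0.27, adjusted p = 0.262). TP63, the transcription factor of squamous basal cells, was high on all arrays and 0.68 ± 0.22 log2 units lower in FaDu, which is below 2-fold (adjusted p = 0.0415). E-cadherin (CDH1), which joins epithelial cells, read 3212 and 3424 in FaDu and 2416 and 3038 in HSC3 (difference 0.29 ± 0.17, adjusted p = 0.207). It was well above background on all arrays. Markers of other cell types were mostly not well above background: 0 of 10 endothelial, 3 of 10 fibroblast and 4 of 10 leukocyte markers could be tested. COL1A1, the main collagen of fibroblasts, read 27 and 25 in FaDu and 43 and 34 in HSC3. The leukocyte receptor tyrosine kinase CSF1R was at the floor in FaDu and at 151 and 134 in HSC3, and the fibroblast protease FAP was at the floor in FaDu and at 329 and 156 in HSC3. These were the members of the fibroblast and leukocyte lists that were called.

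Among 33 tested genes of cell-cell junctions, 6 were called higher in FaDu and 3 higher in HSC3, with a list median of 0.05 against 0.09 over all genes. CLDN4, a tight junction claudin, read 646 and 559 in FaDu and 67 and 75 in HSC3, a difference of 3.08 ± 0.16 (adjusted p = 0.000118). CLDN1, another claudin, went the other way, with 83 and 139 against 1240 and 891 (difference −3.29 ± 0.29). ESRP1 and GRHL2, regulators of epithelial splicing and transcription, were higher in FaDu by 1.57 and 1.21. The shares called, 18.2% higher in FaDu and 9.1% higher in HSC3, lay near the 14.2% and 13.0% of all genes. DSC3, a desmosomal cadherin, cannot be placed, because its brightest probe gave −2.77 and another probe gave 0.96.

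Of 21 tested keratins 1 (4.8%) was higher in FaDu and 5 (23.8%) were higher in HSC3. Restricted to the 16 with a signal in both lines, the counts were 1 and 2. The larger share in HSC3 therefore rests on keratins that were not well above background on all arrays. KRT6B, a keratin of activated and wounded epithelium, read 24.7 and 30.5 in FaDu and 2301 and 9906 in HSC3, a difference of −7.44 ± 0.62. It was not well above background on every FaDu array, so this value is near a bound. KRT6C of the same family read 612 and 632 against 17278 and 22818, a 31.9-fold higher level in HSC3 (adjusted p = 4.66e-05). These keratins are near-identical in sequence, so their probes may share signal. KRT80 was the keratin higher in FaDu (2.98 ± 0.16). KRT8, KRT18 and KRT19, keratins of simple epithelium, were high on all arrays and differed by −0.13, −0.20 and 0.23. The count of keratins higher in FaDu was 4 without HSC3 array 2.

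Among genes measured in both lines the widest gap lay in vimentin. VIM, the intermediate filament of mesenchymal cells, read 45.1 and 38.7 on the FaDu arrays and 34347 and 27849 on the HSC3 arrays. The difference of −9.53 ± 0.18 was a 740-fold higher level in HSC3 (adjusted p = 8.03e-06), and the second VIM probe gave −9.33. SPARC, a secreted matrix glycoprotein, was at the floor on both FaDu arrays and at 14427 and 12030 in HSC3, at least 574-fold higher, a bound that cannot be ranked against VIM. Others not well above background in FaDu were AJUBA, a LIM-domain adaptor of junctions and Hippo signalling, at least 324-fold higher, and ALDH7A1, an aldehyde dehydrogenase, at least 126-fold higher. These genes were close to an on and off contrast, and they were picked for the size of their difference.

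Other genes with large excess in HSC3 and a measured level in both lines were KYNU, an enzyme of tryptophan breakdown (76.5-fold), RAMP1, a partner of the calcitonin receptor-like receptor (53.1-fold), PDLIM4, an actin-binding LIM protein (49.0-fold), EDN1, which encodes endothelin (48.2-fold), MGLL, a monoglyceride lipase (40.4-fold), GAS6, the ligand of AXL (37.3-fold), and HMGA2, an oncofetal chromatin protein (35.4-fold). HMGA2 read 298 and 541 in FaDu and 13146 and 15303 in HSC3, although another of its probes gave −0.68. The gene CCDC9B (54.7-fold), the serine protease HTRA1 (36.1-fold) and the follistatin-like protein FSTL1 (35.8-fold) were in the same range.

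Promoter windows are shown to let CpG content be compared. In each direction they are those of the highest-ranked gene with an available window, among measured genes and among bounds. KRTCAP3 was shown because no window was available for GAL, FKBP10 and OASL, which ranked above it. Each window runs from 250 bases before to 50 bases after the start that RefSeq gives (build GRCh38.p14), on the strand of the gene, and capitals mark CpG dinucleotides. The windows are VIM at chr10:17227991-17228290 (plus strand), SPARC at chr5:151686866-151687165 (minus strand), KRTCAP3 at chr2:27442131-27442430 (plus strand) and MGST1 at chr12:16346865-16347164 (plus strand). KRTCAP3 and MGST1 were higher in FaDu and are described further on.
VIM: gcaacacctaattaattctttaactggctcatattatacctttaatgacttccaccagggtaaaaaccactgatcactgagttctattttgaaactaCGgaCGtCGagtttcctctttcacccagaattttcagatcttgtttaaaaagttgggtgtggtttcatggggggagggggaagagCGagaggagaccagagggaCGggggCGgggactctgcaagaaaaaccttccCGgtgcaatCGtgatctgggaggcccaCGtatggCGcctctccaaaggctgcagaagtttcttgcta
SPARC: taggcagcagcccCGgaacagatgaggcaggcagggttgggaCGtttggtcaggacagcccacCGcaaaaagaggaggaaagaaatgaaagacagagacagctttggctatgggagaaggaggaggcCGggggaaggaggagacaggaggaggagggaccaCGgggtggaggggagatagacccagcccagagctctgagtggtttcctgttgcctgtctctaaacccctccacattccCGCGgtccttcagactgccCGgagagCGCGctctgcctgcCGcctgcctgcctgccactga
KRTCAP3: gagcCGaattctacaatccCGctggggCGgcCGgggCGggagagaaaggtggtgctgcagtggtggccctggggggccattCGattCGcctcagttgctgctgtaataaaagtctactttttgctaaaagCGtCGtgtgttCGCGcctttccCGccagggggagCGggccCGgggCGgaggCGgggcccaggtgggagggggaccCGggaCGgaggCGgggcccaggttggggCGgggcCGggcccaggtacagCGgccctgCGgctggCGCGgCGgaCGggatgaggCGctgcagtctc
MGST1: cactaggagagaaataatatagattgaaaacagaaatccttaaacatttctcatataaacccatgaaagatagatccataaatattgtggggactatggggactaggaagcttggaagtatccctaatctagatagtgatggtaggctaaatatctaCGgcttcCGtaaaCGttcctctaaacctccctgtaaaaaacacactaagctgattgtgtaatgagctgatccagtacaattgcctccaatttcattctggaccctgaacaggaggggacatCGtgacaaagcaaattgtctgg

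The windows of VIM and SPARC hold 10 and 11 CpG dinucleotides, that of MGST1 holds 4 and that of KRTCAP3 holds 28. For the 9397 tested genes with such a window, the median was 26, and 13.3% had a ratio of observed to expected CpG below 0.4. That share was 11.4% of 6900 genes that were not called, 14.8% of 1281 called higher in FaDu and 22.5% of 1216 called higher in HSC3. It was 34.8% of the 224 genes higher in HSC3 that were not well above background in FaDu, and 25.2% of the 202 with the opposite pattern. Over all 27303 windows, which include genes that were not tested here, the share was 42.2%. These shares are a description of the lists, with no test, and DNA methylation was not measured.

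VIM and SPARC led a broad set of mesenchymal genes. Of 46 listed genes of mesenchymal character and epithelial-mesenchymal transition, 39 were tested, with a median of −0.76. Of these, 6 (15.4%) were called higher in FaDu and 16 (41.0%) higher in HSC3. Restricted to the 30 with a signal in both lines, the counts were 3 and 13. DKK3, a secreted Wnt modulator, read 942 and 771 in FaDu and 21342 and 16426 in HSC3 (−4.46 ± 0.20). TNC, the matrix protein tenascin C, read 40 and 32 against 1669 and 391 (−4.50 ± 0.62), so the HSC3 arrays differed from one another several-fold while both stayed above FaDu. CD44, a hyaluronan receptor, and AXL, a receptor tyrosine kinase, were higher in HSC3 by 2.48 and 2.45 log2 units.

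The shift was not uniform across this list. SNAI1, ZEB1 and CDH2, which encode transcription factors of the transition and N-cadherin, were called higher in FaDu, although at low levels. ZEB1 read 64 and 77 in FaDu and 21 and 22 in HSC3, and CDH2 read 98 and 78 against 20 and 27. SNAI2 (−0.57 ± 0.20) and TWIST1 (0.31 ± 0.20) were not called. The basement membrane collagens COL4A1 and COL4A2 were also higher in FaDu, COL4A2 with 2023 and 1100 against 63 and 47 (4.78 ± 0.31).

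Of 23 tested genes for integrins, which are receptors for the matrix, and for the laminins that they bind, 14 were called higher in HSC3 and 3 higher in FaDu, with a median of −1.28. Over all genes 13.0% were called higher in HSC3. Restricted to the 18 with a signal in both lines, 11 were higher in HSC3 and 2 in FaDu. LAMA3 and LAMB3, laminin chains that anchor basal keratinocytes, were among the members called higher in HSC3. LAMA3 read 588 and 583 in FaDu and 11366 and 13098 in HSC3 (−4.38 ± 0.16), and LAMB3 differed by −1.28 ± 0.16. ITGA6 and ITGB4, which pair as an integrin that binds laminin, were also higher in HSC3, ITGA6 with 1682 and 2084 against 6038 and 9266 and ITGB4 by 1.48 log2 units, and COL17A1, a hemidesmosome collagen, by 2.31. The members higher in FaDu were ITGB7, ITGA7 and LAMA2, with differences of 1.79 and 1.55 for the integrins, while LAMA2 was not well above background in HSC3 and was at least 2.68-fold higher.

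Of 31 tested extracellular proteases and their inhibitors, 17 (54.8%) were called higher in HSC3 and 4 (12.9%) higher in FaDu, with a median of −1.37. Restricted to the 26 with a signal in both lines, the counts were 15 and 1. SERPINB2, an inhibitor of urokinase, read 24 and 28 in FaDu and 1634 and 2624 in HSC3, at least 79.1-fold higher. MMP9, a gelatinase, read 130 and 111 against 1941 and 5271 (−4.74 ± 0.44). Urokinase itself (PLAU) was bright in both lines, with 17178 and 16440 against 96802 and 74430 (−2.34 ± 0.18), and its receptor PLAUR was higher in HSC3 by 1.89. MMP1 and MMP14, a collagenase and a membrane-bound protease, were higher in HSC3 by 2.86 and 2.63. The members higher in FaDu were other metalloproteinases: MMP13, another collagenase, with 847 and 317 against 29 and 22, and MMP12, MMP7 and MMP15. The proteases with printed levels were called members shown for their differences, so the gap between the arrays of the lines is not a separate result.

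Cytokines and chemokines had the lowest median of the lists, −1.71 over 27 tested genes. Of these, 16 (59.3%) were called higher in HSC3 and 3 (11.1%) higher in FaDu, against 13.0% and 14.2% of all genes. Restricted to the 18 with a signal in both lines, 10 were higher in HSC3 and 2 in FaDu, with a median of −1.53. Members not well above background in FaDu, such as TNF, entered the test through HSC3 alone, so their direction was set by the filter. TNF, the inflammatory cytokine, was at the floor on both FaDu arrays and at 3040 and 3042 in HSC3, at least 132-fold higher, although its second probe gave −3.60. CSF2, a growth factor of myeloid cells, read 29 and 36 against 781 and 1828, and IL32 was at the floor in FaDu and at 978 and 458 in HSC3. The chemokines CXCL2 and CXCL3, which attract neutrophils, were higher in HSC3 by 5.05 ± 0.60 and 4.29 ± 0.57 log2 units. Within HSC3 they varied, CXCL2 between 14466 on array 1 and 3566 on array 2. With HSC3 array 2 left out, CXCL2 differed by −6.06, the list median was −2.36, and 17 genes were higher in HSC3 and 3 higher in FaDu. IL6 read 242 and 86 in FaDu and 961 and 182 in HSC3, so the lines overlapped and it was not called (adjusted p = 0.166). CSF3 was at 346 on HSC3 array 1 and at 36 on array 2. LIF, a cytokine of the IL6 family, was the member with the largest excess in FaDu (2.54 ± 0.22).

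The EGF receptor family was examined because the study centred on PTPN11, a phosphatase that couples receptor tyrosine kinases to RAS. PTPN11 itself did not separate the lines, with 12955 and 13886 in FaDu and 14656 and 13496 in HSC3 (difference −0.07 ± 0.15). EGFR read 840 and 786 in FaDu and 2447 and 2408 in HSC3, a difference of −1.58 ± 0.15 (adjusted p = 0.000592). Of 36 tested genes of this family, its ligands and its RAS-MAPK coupling, 11 were called higher in HSC3 and 2 higher in FaDu (1 without FaDu array 1), with a median of −0.16. The median was −0.27 without FaDu array 2 and −0.30 without HSC3 array 1. The ligands HBEGF (−3.31 ± 0.23), AREG (−2.52 ± 0.28), TGFA (−1.72 ± 0.29) and NRG1 (−1.60 ± 0.27) were higher in HSC3, and BTC was higher in FaDu by at least 2.46-fold, a call that was lost without HSC3 array 2 (difference 0.99). Feedback genes of the pathway, DUSP4, SPRY4, DUSP6, ERRFI1 and SPRY2, were also higher in HSC3, by 2.82, 2.41, 1.59, 1.42 and 1.39. ERRFI1 lost its call without FaDu array 1 (−0.88, adjusted p = 0.0887) and without HSC3 array 2 (−1.05, adjusted p = 0.0714). HRAS and NRAS were not called (−0.93 and 0.27).

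Wnt, Notch and TGF-beta pathway genes moved both ways, with 10 of 44 tested genes (22.7%) higher in FaDu and 17 (38.6%) higher in HSC3. INHBA, a subunit of activin, read 25 and 48 in FaDu and 8725 and 13369 in HSC3 (−8.29 ± 0.35). INHBA was not well above background on every FaDu array, so this value is near a bound. Its antagonist FST was higher in HSC3 as well (−3.64 ± 0.18). WNT3A was higher in HSC3 by at least 60.1-fold. The bone morphogenetic protein BMP7 went the other way, with 2482 and 2381 in FaDu and 32 and 37 in HSC3 (6.16 ± 0.16), although its second probe gave 2.53. BMP7 was not well above background on every HSC3 array. ID1, a target of BMP signalling, was higher in FaDu with 13158 and 9934 against 2368 and 2158. SMAD4, the shared SMAD of this pathway, read 25 and 22 in FaDu and 48 and 46 in HSC3, close to the floor in both, at least 2.03-fold higher in HSC3. It lost its call without FaDu array 2 (−0.93).

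**Figure D2:**
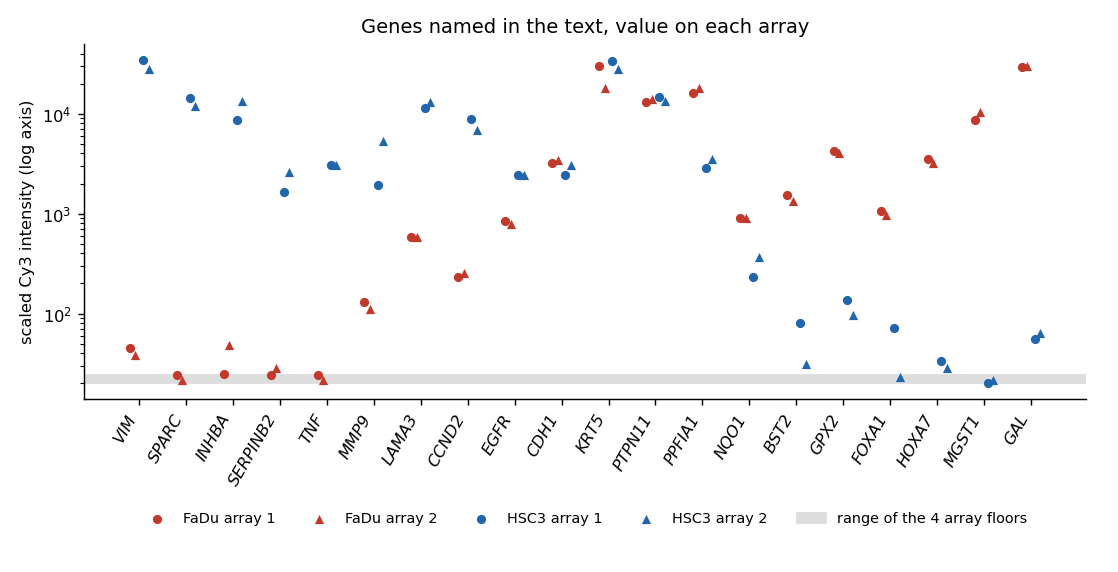
Scaled Cy3 intensity (log axis) of 20 named genes on each of the 4 arrays; red marks are FaDu, blue marks HSC3, circles array 1 and triangles array 2, and the grey band spans the 4 array floors of 20.1 to 24.2. The symbols of a line lie close together for most genes, CDH1, KRT5 and PTPN11 sit at similar heights in both lines, and VIM, SPARC, MGST1 and GAL are split by 740-fold, at least 574-fold, at least 456-fold and 500-fold.

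On the FaDu side the gene with the largest measured difference was GAL, which encodes the neuropeptide galanin. It read 29481 and 29893 in FaDu and 55.2 and 63.8 in HSC3, a 500-fold difference (8.97 ± 0.16, adjusted p = 8.03e-06). FKBP10, a collagen chaperone, was 153-fold higher, OASL, an interferon-induced gene, 68.3-fold, KRTCAP3, a keratinocyte-associated membrane protein, 47.5-fold, and DPYSL3, a cytoskeletal regulator, 38.2-fold, with its other probe at 2.06 log2 units. The stress-induced cytokine GDF15 was 35.3-fold higher, with 5040 and 6465 against 258 and 101. The transporter SLC16A5 (23.5-fold) and carbonic anhydrase CA2 (21.8-fold) were the last of the 12. MGST1, a membrane-bound glutathione transferase, read 8672 and 10449 in FaDu and lay at the floor in HSC3, at least 456-fold higher. EPDR1, PRSS21, FARP1, ZNF469, PACSIN1, MLPH, LXN, EEF1A2, SGCE, VCX and KCNK5 followed, with lower bounds from 140-fold for EPDR1 down to 36.5-fold for KCNK5. Other probes of EPDR1, FARP1 and MLPH gave smaller log2 differences of 2.28, 1.23 and 1.60.

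Genes of the NRF2 programme and of xenobiotic metabolism were called higher in FaDu for 21 of 41 tested members, against 14.2% of all genes. Of 51 listed genes 50 were on the array and 41 were tested, 1 was called higher in HSC3, and the list median was 1.08. Restricted to the 33 with a signal in both lines, 13 were higher in FaDu and 1 in HSC3. GPX2, a glutathione peroxidase, read 4223 and 4056 in FaDu and 138 and 97.8 in HSC3 (5.15 ± 0.20). UGT1A6, which conjugates glucuronic acid, differed by 5.10 ± 0.18, with the caution that genes of its locus share exons. ALDH3A1, an aldehyde dehydrogenase, was at the floor in HSC3 and at 754 and 339 in FaDu. Classical members such as NQO1 (912 and 901 against 234 and 368), GCLM (2037 and 1692 against 699 and 545), SLC7A11 (366 and 464 against 81 and 184), and ME1 (1.09 ± 0.18) were higher in FaDu by smaller amounts. ME1 fell just below 2-fold without FaDu array 1 (0.96) and without HSC3 array 2 (0.97). AKR1C3 was the member higher in HSC3 (−1.62 ± 0.21). Its paralogs AKR1C1 and AKR1C2 are near-identical to it, so its probe may not tell them apart.

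NRF2 binds the antioxidant response element, whose core is TGACNNNGC. This core was searched on both strands of the promoter windows, where it can overlap the AP-1 site TGANTCA. It was present in 5 of the 17 FaDu-higher members of the list that have a window (29.4%), in 9 of the 31 tested members with a window (29.0%), called or not, in 15.2% of the windows of all tested genes and in 13.5% of all 27303 windows. A short window around each match is printed 5′ to 3′ on the strand that reads TGAC, with the core in capitals, because these are the members whose start lies beside such a match. The matches lie at chr1:93909448-93909472 (GCLM, glutamate-cysteine ligase), chr6:83431172-83431196 and chr6:83431024-83431048 (ME1, malic enzyme), chr14:64942851-64942875 (GPX2), chr11:67583738-67583762 (GSTP1, a glutathione transferase) and chrX:15493291-15493315 (PIR, pirin) of GRCh38.p14.
GCLM: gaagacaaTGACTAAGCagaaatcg
ME1, first match: tcctgccaTGACTCAGCgcttctcg
ME1, second match: tgctggggTGACGGTGCtgactgca
GPX2: ccccaggaTGACTTAGCaaaaacag
GSTP1: cggcgccgTGACTCAGCactggggc
PIR: cctcaccgTGACTCAGCgcttcgcg

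PIR read 6886 and 4713 in FaDu and 660 and 906 in HSC3 (2.88 ± 0.25), and GSTP1 was bright on all arrays with 1.23 ± 0.18 in favour of FaDu. The core in ME1 (first match), GSTP1 and PIR contains the AP-1 letters TGANTCA as well. AP-1 letters were found in 5.0% of the windows of tested genes, in 4.3% of those called higher in FaDu and in 7.0% of those called higher in HSC3, against 7.9% of all windows. They were in 17 of 141 windows (12.1%) of genes higher in HSC3 by at least 8-fold and in 4 of 83 (4.8%) of genes higher in FaDu by at least 8-fold. Matches are descriptions of the sequence and were not tested, and binding was not measured.

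HOX genes, whose products set position along the body axis, were higher in FaDu wherever they were called. Of 39 HOX genes on the array 25 were tested, and 13 (52%) were called higher in FaDu and 0 higher in HSC3, with a median of 1.16. By limma at an unadjusted p under 0.05, 0 HOX genes were lower in FaDu. This count and the share of 52% include members that entered the test through their FaDu signal. The direction of those members was largely set by the filter, so they do not bear on whether the list is one-sided. Of the 25, 16 had a signal well above background on all arrays, and among these the counts were 6 and 0. HOXA7 read 3488 and 3180 in FaDu and 34 and 28 in HSC3 (6.75 ± 0.16, adjusted p = 2.02e-05). Called members measured on all arrays were HOXA10 (2.73 ± 0.29), HOXA9 (2.70 ± 0.17), HOXA4 (2.28 ± 0.27), HOXB3 (1.69 ± 0.17), HOXD10 (1.47 ± 0.18) and HOXD9 (1.16 ± 0.16). HOXB4, HOXC10 and HOXB7 were not well above background in HSC3 and were at least 9.79-fold, 3.2-fold and 2.48-fold higher. HOXA7, HOXB2, HOXB13 and HOXA2 were well above background on 1 of the 2 HSC3 arrays, with differences of 3.66 for HOXB2 (0.21 with a second probe), 2.79 for HOXB13 and 1.81 for HOXA2. Called members of the HOXA, HOXB and HOXD clusters included genes measured on all arrays. The only called HOXC gene was HOXC10, which entered the test through its FaDu signal alone and so could not have been called higher in HSC3. HOXC9, HOXC13 and HOXD8 differed by 0.35, 0.14 and −0.03.

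Other transcription factors of regional identity divided. Of 27 tested, 10 were called higher in FaDu and 4 higher in HSC3. FOXA1, a factor of endodermal epithelia, read 1065 and 978 in FaDu and 72 and 23 in HSC3 (4.63 ± 0.49). PAX9, a pharyngeal pouch factor, read 288 and 294 against 42 and 39 (2.84 ± 0.15), and NKX2-1, a lung and thyroid factor, read 116 and 120 and was not well above background in HSC3 (at least 4.68-fold). IRX5, IRX3 and IRX4 of the Iroquois family were higher in FaDu by 1.55, 1.51 and 1.45. TBX1, a factor of the pharyngeal arches, was higher in HSC3, with 618 and 691 against 48 and 36 (−3.96 ± 0.19). FOXE1, FOXA2 and DLX1 were higher in HSC3 by 2.79, 2.32 and 2.12.

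Interferon-stimulated genes also divided, 13 of 41 tested (31.7%) being higher in FaDu and 7 (17.1%) higher in HSC3, with a median of 0.45. OASL read 8000 and 3636 in FaDu and 112 and 55.7 in HSC3 (6.09 ± 0.46), BST2, the membrane tether of budding virus, 1529 and 1333 against 79.8 and 31.5 (4.83 ± 0.41), and HERC5, a ligase for ISG15, 904 and 435 against 40 and 48 (3.83 ± 0.34). IFI44, IFIT1 and IFIT2 were higher in FaDu by 2.62, 2.29 and 2.13. All 6 of these read lower on FaDu array 2 than on FaDu array 1. IFITM1, a membrane protein that limits viral entry, was higher in HSC3 with 7676 and 3452 against 965 and 608 (−2.75 ± 0.41). IFI27 read 2134 and 8149 in FaDu and 18776 and 13709 in HSC3. It lost its call without FaDu array 1 (difference −0.98) and without HSC3 array 1 (difference −1.72, adjusted p = 0.0725). The counts for the list were 12 and 12 when HSC3 array 2 was left out, and 14 and 5 when HSC3 array 1 was left out.

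Of 21 tested genes of antigen presentation, 5 (23.8%) were called higher in HSC3 and 2 (9.5%) higher in FaDu, but most calls towards HSC3 depended on single arrays. Without HSC3 array 1 the 5 became 2. CIITA, PSMB9 and TAP1 lost their calls there (−0.87, −0.81 and −0.95). PSMB9 and TAP1 also lost them without FaDu array 2 (−0.88 and −0.80), and HLA-E without FaDu array 1 (−0.91). With the mean of all probes of a gene, 3 were higher in HSC3 and 2 in FaDu. HLA-F (−1.81 ± 0.22), CIITA, the master regulator of class II genes (at least 2.40-fold), and the immunoproteasome subunit PSMB9 (−1.14 ± 0.28) were higher in HSC3. PSMB10, another such subunit, and MICA, a ligand of natural killer cells, were higher in FaDu by 1.65 and 2.01. HLA-E differed by −1.06 with its brightest probe and by 0.31 with another. Class I genes are close in sequence and their probes may share signal.

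Genes of squamous differentiation showed the largest spread within a line. Of 26 tested, 3 were called higher in FaDu and 7 higher in HSC3, with a median of −0.67. SPRR3, a small proline-rich protein of the cornified envelope, read 24 and 29 in FaDu, 202 on HSC3 array 1 and 14637 on HSC3 array 2, so that its difference of −6.01, a bound of at least 64.4-fold, had an SE of 1.77. Its call was lost without FaDu array 1 (adjusted p = 0.074) and without FaDu array 2 (adjusted p = 0.0645). SPRR1B read 128 and 144 against 923 and 13512, and KRT1, the first keratin of suprabasal cells, 24 and 29 against 68 and 5254, which was not called (adjusted p = 0.0813). Without HSC3 array 2 these differences were −2.92, −2.77 and −1.36, in the same direction but several-fold smaller. The counts of the list were then 6 higher in FaDu and 6 higher in HSC3, and without HSC3 array 1 they were 1 and 13. Fewer were called without FaDu array 1 (4 higher in HSC3) and without FaDu array 2 (1 higher in FaDu). KLK10, a kallikrein of the outer epidermis, read 761 on HSC3 array 1 and 4960 on HSC3 array 2, against 6082 and 5109 in FaDu, and was not called.

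The genes apart within HSC3 were listed after their values had been seen. At least 2-fold differences between the arrays of a line were found for 301 genes in HSC3 and 114 in FaDu, and at least 8-fold differences for 16 and 1. Of the 16 in HSC3, 12 were higher on array 2. SPRR2G read 81.3 on array 1 and 14288 on array 2, LCE3D 96.4 and 4001, KRTDAP 48.7 and 1884, CRCT1 193 and 6296, and PI3 70.8 and 2070, all genes of terminal keratinocyte differentiation. NNMT, a methyltransferase for nicotinamide, read 2552 and 208. The Cy5 channel of the same arrays carried RNA of the miRNA transfectants, and it showed the same contrast. SPRR2G read 86.0 in Cy5 of array 1 and 20314 in Cy5 of array 2, and NNMT read 5742 and 265. Of the 284 such HSC3 genes with a Cy5 value, 278 differed in the same direction and 213 at least 2-fold. In FaDu 98 of 113 did so and 53 at least 2-fold. Across genes the within-line differences in the 2 channels had a Pearson r of 0.716 in HSC3 (11026 genes) and 0.450 in FaDu (11031 genes). The channels of an array share spots and hybridisation, and genes are not independent, so no p is given. The 1 gene at least 8-fold apart in FaDu was RBBP8, with 26.9 on array 1 and 1162 on array 2.

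**Figure D3:**
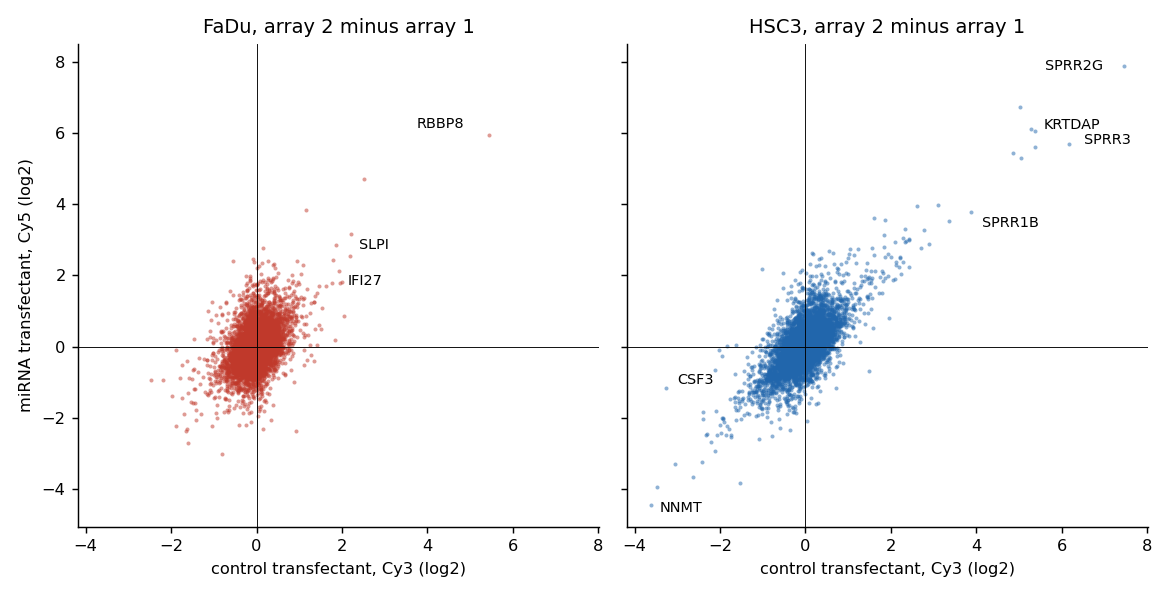
For each gene the difference between array 2 and array 1 of a line in the control transfectants (Cy3, horizontal axis) and in the miRNA transfectants on the same arrays (Cy5, vertical axis), both log2, with FaDu on the left and HSC3 on the right. In HSC3 the cornified envelope genes SPRR2G, SPRR3 and KRTDAP lie far up on the right in both channels and NNMT at the lower left, while FaDu shows an oval cloud with RBBP8 apart.

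S100 proteins include neighbours of those genes. Of 14 tested, 5 were higher in HSC3 and 2 higher in FaDu, but among the 10 with a signal in both lines 1 was higher in HSC3 and 2 in FaDu. S100A8, a calcium-binding protein of stressed and inflamed epithelium, was at 27 and 22 in FaDu and at 1084 and 8056 in HSC3 (at least 121-fold), and S100A9, its partner, at the floor in FaDu and at 263 and 925 in HSC3. The difference of S100A8 was −5.47 with HSC3 array 2 left out. The count higher in HSC3 was 3 without FaDu array 2. S100A14 (2.11 ± 0.17) and S100A4 (1.16 ± 0.24) were higher in FaDu, S100A4 not without FaDu array 1 (0.81). The antimicrobial peptide DEFB103B was at the floor in FaDu and at 882 and 1969 in HSC3, at least 57.4-fold higher.

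Among cell cycle genes, G1 regulators were called in both directions and proliferation genes only towards FaDu. CCND1, which encodes cyclin D1, read 5814 and 6706 in FaDu and 4498 and 6637 in HSC3 (0.19 ± 0.22, adjusted p = 0.503). CCND2 read 233 and 252 against 8818 and 6831, a 32-fold higher level in HSC3 (adjusted p = 4.24e-05), while CCND3 (1.78 ± 0.14) and CCNE1 (1.43 ± 0.28) were higher in FaDu. The inhibitors CDKN1A and CDKN2B were higher in HSC3 by 1.95 and 2.11, and CDKN2A did not separate the lines (3014 and 3490 against 3164 and 3371). Of 24 tested G1 regulators 3 (12.5%) were called each way, near the 14.2% and 13.0% of all genes. Proliferation genes were higher in FaDu in 8 of 29 tested (27.6%) and higher in HSC3 in 0, with a median of 0.45. The median of common reference genes was 0.39. With quantile normalization or scaling by the median of all probes, 6 proliferation genes were higher in FaDu. The 8 members called in the main setting were helicase and replication genes such as GINS2 (1.69 ± 0.19), MCM7 (1.22 ± 0.17), MCM6, MCM4 and CDT1, with FOXM1, BIRC5 and TK1. All 8 differed by less than 4-fold. BIRC5 fell below 2-fold without FaDu array 1 (0.98), and CDT1 and TK1 without HSC3 array 2 (0.92 and 0.85). MKI67 and TOP2A, markers of dividing cells, differed by −0.03 and −0.07. RRM2 and AURKB were lower in FaDu by 0.81 and 0.63, below 2-fold.

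Targets of p53 were called in both directions, 5 of 27 tested being higher in FaDu (3 without FaDu array 1) and 8 higher in HSC3. TNFRSF10A, a death receptor, was at the floor in FaDu and at 428 and 368 in HSC3, and CDKN1A, TP53I3, BBC3 and PLK2 were higher in HSC3 by 1.95, 1.96, 1.87 and 1.71. GDF15, described above, was the FaDu-higher member with the largest difference. Of 35 cancer-testis and oncofetal genes on the array 10 were tested, and 4 were higher in FaDu and 3 in HSC3. PRAME, a cancer-testis antigen, read 684 and 587 in FaDu and was at the floor in HSC3 (at least 29.3-fold), and the RNA-binding proteins IGF2BP2 and IGF2BP3 were higher in HSC3 by 3.08 and 1.64. H19, an imprinted RNA, read 1243 and 1400 in FaDu and 53 and 232 in HSC3.

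Of 19 common reference genes, 1 was called higher in FaDu (GUSB, 1.41 ± 0.14) and 1 higher in HSC3 (PGK1, −1.16 ± 0.16). GAPDH read 51878 and 50704 in FaDu and 40355 and 35014 in HSC3 (0.45 ± 0.16), and ACTB differed by 0.23 ± 0.17. The median of this list, 0.39, lay above the 0.09 of all genes.

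**Figure D4:**
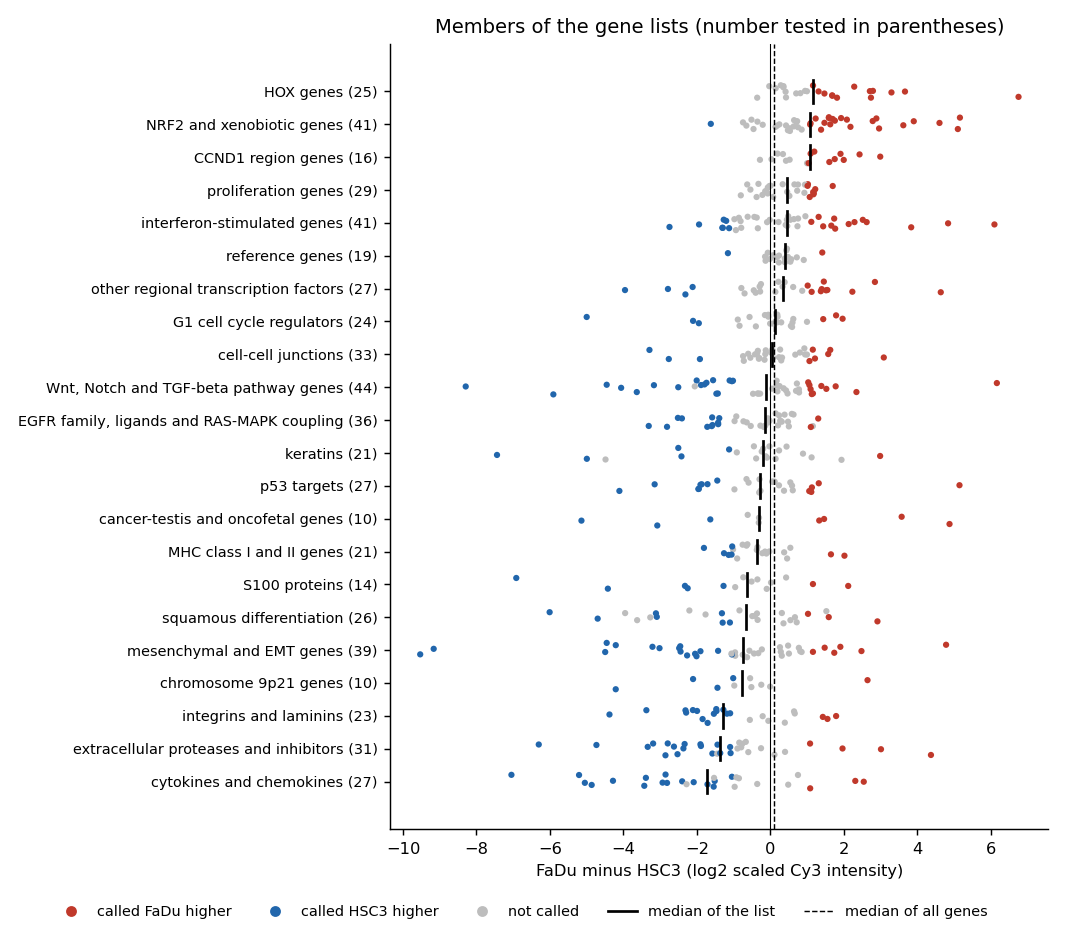
Difference between FaDu and HSC3 (log2) of every tested member of 22 gene lists, ordered by list median; red points were called higher in FaDu, blue points higher in HSC3 and grey points were not called, and the dashed line is the median of all genes (0.09). Cytokines, proteases and integrins with laminins lie to the left, and HOX genes, NRF2 genes and genes of the CCND1 region at 11q13 to the right.

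Neighbouring genes on a chromosome often differed together. Tested genes were ordered by the RefSeq annotation of GRCh38.p14, which was used for neighbourhood only. Chromosome 16 had the largest share of genes higher in FaDu, 216 of 560 (38.6%), against 24 (4.3%) higher in HSC3, and its median was 0.80 in Cy3 and 0.88 in Cy5. Chromosome 10 had the largest share higher in HSC3, 97 of 432 (22.5%), with a median of −0.37. Among the 23 chromosomes considered the medians ran from −0.37 to 0.80, and on chromosome 22 both directions were frequent, with 28.3% higher in FaDu and 20.7% higher in HSC3. The background over all genes was 14.2% and 13.0%. Genes of a chromosome are not independent, and no test was made. DNA copy number was not measured.

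At 11q13, a region often amplified in head and neck cancer, 9 of 16 tested genes (56.25%) were called higher in FaDu. In this region 0 were called higher in HSC3, and the median was 1.06. SHANK2 read 463 and 461 in FaDu and 68 and 50 in HSC3 (2.99 ± 0.19), PPFIA1, an adaptor of focal adhesions, 16174 and 17964 against 2889 and 3495 (2.42 ± 0.17), and CTTN, the actin regulator cortactin, 2609 and 3373 against 675 and 822 (1.99 ± 0.20). TPCN2, LTO1, ANO1 and FADD were higher by 1.91, 1.75, 1.60 and 1.09, IGHMBP2 by 1.04 and TESMIN by at least 2.29-fold. FADD, IGHMBP2 and TESMIN fell below 2-fold without HSC3 array 2 (0.93, 0.91 and 0.80), and IGHMBP2 also without FaDu array 2 (0.95). CCND1 lies among them and was not called, with overlapping values in the lines. Close to it in gene order, MYEOV (0.34) and FGF3 (0.03) were not called either. GAL, the gene with the largest measured excess in FaDu, lies 8 tested genes before CCND1 in this order. The count was 6 with HSC3 array 2 left out and 10 with HSC3 array 1 left out.

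At 9p21, which holds CDKN2A, 4 of 10 tested genes were higher in HSC3 and 1 higher in FaDu (2 and 1 without HSC3 array 1). HACD4, a fatty acid dehydratase, was at the floor in FaDu and at 494 and 366 in HSC3, and CDKN2B read 47 and 40 against 178 and 198. MTAP, the usual companion of CDKN2A, read 263 and 233 against 343 and 252 and was not called. TUSC1 was higher in FaDu by 2.64 ± 0.26.

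Sliding windows of 15 neighbouring tested genes gave 11245 medians, of which 509 were at or above 1 and 153 at or below −1. The windows below were picked for their values and are a description. The highest lay on chromosome 22 from ATXN10 to TRABD, with a median of 2.18 (1.98 in Cy5) and 14 of 15 genes higher in FaDu, among them the mitotic gene GTSE1 (2.74 ± 0.15), the cadherin CELSR1 (2.33 ± 0.17) and the nuclear receptor PPARA (1.81 ± 0.21). The next was a run of zinc finger genes on chromosome 19 from ZNF93 to ZNF254, with a median of 2.06 and 14 of 15 genes higher in FaDu. ZNF93 read 256 and 317 in FaDu and lay at the floor in HSC3, at least 13.7-fold higher. These are paralogs whose probes may share signal. A window on chromosome 6 from GTPBP2 to ADGRF1 had a median of 1.61 and held VEGFA, the angiogenic factor (1.93 ± 0.28), and HSP90AB1, a chaperone (1.82 ± 0.15). Further windows were on chromosome 16 from ZNF48 to RNF40 (1.58) and on chromosome 15 from IGF1R to TM2D3 (1.55).

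The lowest window, on chromosome 1 from LCE1A to S100A3, had a median of −2.33 and 6 of 15 genes higher in HSC3. It holds the SPRR and S100 genes described above, and its median was −1.16 with HSC3 array 2 left out. On the X chromosome from KLF8 to IGBP1 the median was −1.92 with 10 of 15 genes higher in HSC3, including MSN, which encodes moesin (−2.46 ± 0.18), and EFNB1, an ephrin (−2.83 ± 0.15). On chromosome 22 from CLTCL1 to DGCR8, the end opposite to the FaDu-higher window, the median was −1.41 with 11 of 15 genes higher in HSC3, including TBX1 and HIRA, a histone chaperone (−1.46 ± 0.15). The medians of the X and chromosome 22 windows were −1.59 and −1.61 with HSC3 array 2 left out.

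**Figure D5:**
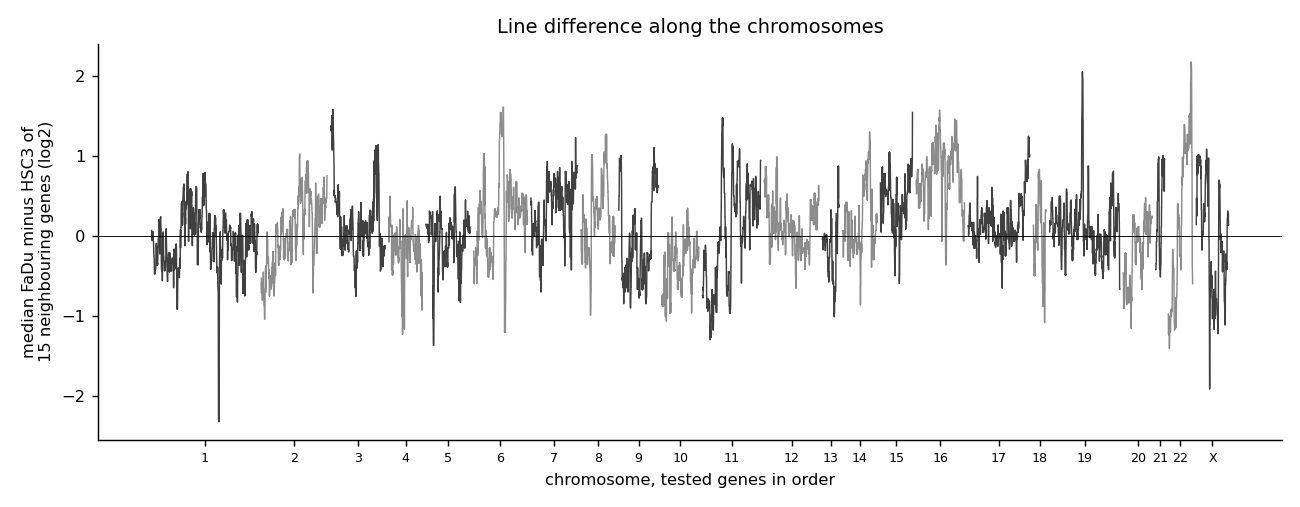
Median difference between FaDu and HSC3 (log2) over 15 neighbouring tested genes, along chromosomes 1 to 22 and X in gene order, with shades of grey alternating by chromosome. Chromosome 16 lies above 0 over nearly its whole length, chromosome 22 crosses from below −1 to above 2, and single peaks mark the zinc finger run on chromosome 19 (up) and the cornified envelope genes on chromosome 1 (down).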

How the data were processed

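The Cy3 channels of 4 two-colour arrays were analysed, 2 of FaDu and 2 of HSC3 control transfectants. The authors deposited spot intensity values of Feature Extraction 9.5.3.1, while their methods name other scanner software; their log ratios were not used. From the deposited median intensity the local background median was subtracted. Control spots and spots marked as outliers (634 to 744 of 43376 per array) were left out, and 0 were saturated. Arrays were scaled by the median of probes well above background on all 4, then floored and log2-transformed, and spots of a probe were averaged. Probes well above background on both arrays of a line (22773 of 41000) were tested with limma (2 residual and 4.14 prior degrees of freedom); an exact permutation test of 2 against 2 arrays cannot go below p = 0.333. The fit was tested on simulated data. Through RefSeq, 23845 probes were named by accession, 2018 by symbol and 966 by an older symbol, and 14171 stayed unnamed. Named genes were the 12 with the largest difference per direction, measured or as bounds, the up to 4 called members of each list with the largest difference per direction, all called HOX genes and some fixed genes; some of them are not reported here. Further list members, the genes apart within a line and the chromosome windows were chosen after their values were seen. Members, lists and rules were chosen with earlier results of these data known. Alternatives covered background, scaling, floor, filter, probe choice, design and left-out arrays. R 4.3.3, limma 3.58.1, Python 3.11.15 and pandas 2.3.3 were used.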

Additional observations from a re-analysis of the deposited data

How the results depend on the processing

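With other choices of background, scaling, floor, filter, variance model and probe, the total of called genes lay between 2130 (no background subtraction) and 3456 (processed signal), against 3141 in the main setting. Genes higher in FaDu numbered 1080 without background subtraction, and of the 3141 genes 67.4% were then called the same way. Leaving out 1 array at a time gave 3123 to 3319 called genes, where the lone array was assumed to vary like the other line. Of the 272 called members of the lists, 51 lost their call without at least 1 array, 21, 24, 16 and 21 of them without FaDu array 1, FaDu array 2, HSC3 array 1 and HSC3 array 2. With the miRNA of the Cy5 partner as a replicate block, 3187 genes were called, among them all 3141, and it changed no call of a named gene; array numbers pair the samples only through that miRNA. Counting only outlier marks of the spot itself, a choice made after seeing the data, gave 3289. Thresholds of 1.5-fold and 4-fold gave 5444 and 849 genes, of which 3010 and 369 were higher in FaDu and 2434 and 480 higher in HSC3. DSC3 reversed to 0.96 where probes had to be well above background on all 4 arrays, since another of its probes then gave its value. In the Cy5 channel 3405 genes were called without the miRNA block, also chosen after seeing the data, against 3687 with it. Only 2 arrays per line limit the precision, and genes near the floor have bounds only.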
